A study of Mus musculus with 15 samples.

Results

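LNC1A probes are the array probes whose manufacturer names begin with ASMM10LNC1A, and they are the largest name class on the array. They were chosen by name alone: 27812 of the 60823 probes that are not control probes carry it, each on 1 spot. The class is read here as long noncoding RNA because its names carry "LNC" and the labels describe the array as covering lncRNA and mRNA. The files state neither the meaning of the name nor the transcript behind it. No LNC1A probe carries an accession, so 0 matched a gene symbol, and each probe is named below by its identifier.

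Long noncoding RNAs are transcripts that are not translated into protein. They act in the nucleus on chromatin and transcription and in the cytoplasm on the stability and use of other RNAs. In the brain many are made in particular cell types and at lower levels than messenger RNAs, and glia and neurons alter their sets of them after injury. Intracerebral hemorrhage (ICH) is bleeding into the brain tissue, which kills cells near the clot and draws in microglia, astrocytes and blood-borne immune cells during repair.

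RNA from the striatum on the injured side of male mice was hybridised to 15 Agilent arrays labelled with a single dye, 5 per group, and the mice were perfused with saline before the tissue was taken on day 14. The sham and ICH groups received distilled water by gavage, and the third group, ICH treated with Buyang Huanwu decoction, a Chinese herbal medicine given after stroke and called BYHWD below, received it at 6.19 g/kg daily. The study set out to find expression signatures of this treatment. Strain and age are not among the labels, which also do not say that the 5 samples of a group came from separate mice, so the p-values rest on a spread between samples that may be technical. Each sample is bulk tissue, in which fewer cells of a type and less RNA per cell cannot be told apart.

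By the scan dates and identifiers in the file headers, the arrays fell into 3 scans, each read here as 1 slide. No slide barcode was read, and the division bears on every result. Slide 1 carried all sham arrays with ICH 2 and ICH 3, slide 2 carried ICH 1, ICH 4 and ICH 5, and slide 3 carried all BYHWD arrays. The 75th percentile of the signal was 261 to 303 units on slide 2 and 420.5 to 540.2 on slide 1. The excess of the 3′ over the 5′ Gapdh control probe, which grows as RNA breaks down, had a log2 value of 0.23 ± 0.15 in sham and 0.49 ± 0.10 in BYHWD (SD, n = 5 each). It was 0.33 and 0.52 on the ICH arrays of slide 1 and 0.61 to 0.79 on those of slide 2. The same difference for Pgk1, whose 5′ probe is far dimmer, took another order, with 7.51 ± 0.14 in sham, 7.87 ± 0.07 in BYHWD (SD, n = 5 each) and means of 7.55 and 7.73 on the ICH arrays of slide 1 and slide 2. All BYHWD arrays (7.77 to 7.95) lay above all sham arrays (7.37 to 7.69). The part of RNA quality in the results was not tested. Mbp, the myelin basic protein gene of oligodendrocytes, was bright on all arrays (8.07 ± 0.16 in sham, 8.27 ± 0.14 in ICH and 8.29 ± 0.16 in BYHWD, log2 level, SD, n = 5 each). Of 26 marker genes listed for brain, immune and red cells, 3 had a named probe, and no striatal neuron marker was among them. Both others mark lymphocytes and were dim but detected on all arrays. Mzb1, of B and plasma cells, had a log2 level of -3.58 in sham, -3.29 and -2.62 on average in ICH of slide 1 and slide 2, and -2.94 in BYHWD. Il2, the T-cell cytokine gene, had -4.92 in sham, -4.75 and -3.09 in ICH of slide 1 and slide 2, and -4.66 in BYHWD. Mzb1 thus differed with group and slide, while Il2 stood apart mainly on the ICH arrays of slide 2. These differences and the part of lymphocytes in the results were not tested.

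A level below is the log2 signal minus the array's own 75th percentile, so that 0 marks a probe brighter than 75% of the others on that array. A spot counts as detected when the scanning software placed it well above background. Of the LNC1A probes, 21126 (76.0%) were detected on all 15 arrays, 2532 (9.10%) on none and 4154 on some. The class thus stood close to the array as a whole, where 75.7% were detected on all arrays and 9.70% on none. AP1B probes, the next largest class, were detected on all arrays in 81.6% of cases, and ASMM10P probes in 68.4%. Probes named as lincRNA, another noncoding class by name, were detected on all arrays in only 41.9% of cases and on none in 32.1%.

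The levels of LNC1A probes covered a wide range around a low middle. The median over the class was -2.35, against -1.54 for AP1B probes, -2.71 for ASMM10P and -4.85 for probes named as lincRNA, as a description of spot brightness that probe length and sequence also set. The middle 50% of LNC1A probes lay between -4.20 and -0.38, and 5% lay above 3.97. These medians and ranges include probes detected on no array, so they partly describe background. The 2532 such LNC1A probes had a median value of -7.15. Per array, 81.5% to 87.1% of LNC1A spots were detected, with 83.1% to 87.1% in sham, 81.9% to 85.0% in ICH and 81.5% to 84.3% in BYHWD, so the groups overlapped. Their median signal was 53.0 to 63.7 units on the ICH arrays of slide 2, 79.5 and 86.3 on those of slide 1, 78.7 to 103 in sham and 55.7 to 79.4 in BYHWD. After scaling, the arrays' medians lay between -2.46 and -2.25.

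The brightest members and the steadiest one show how far the class reaches. ASMM10LNC1A100064121V4 had the highest mean level, at 9.95, 9.83, 9.63, 9.52 and 9.48 on sham 1 to 5, 8.87, 9.70, 9.79, 9.08 and 9.28 on ICH 1 to 5 and 9.51, 9.29, 9.71, 9.71 and 9.47 on BYHWD 1 to 5. ASMM10LNC1A115426906V4 followed, at 9.20 to 9.52 in sham, 9.04 to 9.53 in ICH and 9.40 to 9.69 in BYHWD. The arrays of the 3 groups overlapped for both probes. ASMM10LNC1A100016099V4 varied least among the probes detected on all arrays, between 1.103 and 1.275 over all 15 (SD 0.05). None of these 3 passed the test in any comparison of the 3 groups (limma adjusted p of 0.189 to 0.945).

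Replicate arrays gave LNC1A probes a median SD (log2) of 0.221 for sham, 0.277 for ICH and 0.189 for BYHWD (n = 5 each), close to the 0.224, 0.270 and 0.192 of all probes. The wider spread in ICH went with the slides, since within slide 2 alone the median SD was 0.182 (n = 3) and within slide 1 it was 0.124 (n = 2). The median of SDs taken over fewer arrays is lower by itself, so these 2 values overstate how tight the slides are. In a principal component analysis of the tested LNC1A probes, the first component took 38.4% of the variance. It placed ICH 1, ICH 4 and ICH 5 at -63.8, -63.4 and -60.2, whereas ICH 2 and ICH 3 stood at 27.2 and 24.7, inside the sham range of 18.6 to 45.8. BYHWD lay between, at -10.8 to 5.59. The second component (17.5%) set BYHWD, at -36.4 to -26.9, apart from all other arrays, at 0.63 to 26.9.

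Tests were run on the 23866 LNC1A probes detected on at least 5 arrays with no outlying spot. The other 3946 were not tested, 3872 of them for detection on fewer arrays. The 190 probes detected on 4 arrays, just outside, had a median level of -5.54, and the 229 on 5 arrays, just inside, -5.43. All 51669 tested probes of the array were fitted together with limma, and a probe is called when its adjusted p is under 0.05. The probes named below as the largest rises and falls were chosen among those called, detected on all arrays and with no overlap between the groups compared, so that their lack of overlap comes from the choice.

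The injury comparison asked which transcripts differed after hemorrhage. At day 14, 795 LNC1A probes were higher in ICH than in sham and 262 were lower (1057 of 23866, 4.43%, limma adjusted p under 0.05). Of these, 292 differed at least 2-fold (1.22% of tested LNC1A probes, against 1.496% of all), 70 of them down, and 7 at least 4-fold (0.0293% against 0.159%). Over the whole array 5.03% were called, 4.07% higher and 0.954% lower, against 3.33% and 1.098% of LNC1A probes. The class was therefore called at a rate close to the background, and with a smaller share than the array at 4-fold or more, a difference that was not tested. At an unadjusted p under 0.05, 6966 LNC1A probes passed (29.2%, against 28.5% of all tested probes). The median difference over tested LNC1A probes was 0.03 (log2), against 0.05 over all tested probes.

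Among called probes detected on all arrays and without overlap, the largest pooled rises were those of a pair of bright probes. Over all tested LNC1A probes the largest log2 difference was 3.02. ASMM10LNC1A115454985V4 stood at 2.65, 2.47, 2.16, 2.41 and 2.56 on sham 1 to 5 and at 5.85, 2.67, 2.92, 5.83 and 6.19 on ICH 1 to 5. ASMM10LNC1A110124590V4 stood at 3.05, 3.02, 2.77, 3.25 and 3.05 on sham 1 to 5 and at 6.11, 3.26, 3.47, 5.84 and 6.34 on ICH 1 to 5. In both, every ICH array was above every sham array, but ICH 2 and ICH 3 exceeded the highest sham array by little and the slide 2 arrays by far. The pooled log2 differences were 2.24 ± 0.57 SE (limma adjusted p = 0.0361) and 1.98 ± 0.49 SE (limma adjusted p = 0.0344). Within slide 1 they were 0.34 for each probe (limma adjusted p = 0.809 and 0.833), and for the slide 2 arrays against sham they were 3.51 and 3.07. On BYHWD 1 to 5 the first stood at 3.41, 3.29, 3.05, 3.38 and 3.25, and the second at 4.43, 4.40, 4.73, 4.43 and 4.38.

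The largest falls under the same rule had the same form. ASMM10LNC1A104296140V4 was at 2.77, 2.59, 2.55, 2.60 and 2.48 on sham 1 to 5, and at -0.88, 2.24, 2.23, -0.74 and -1.57 on ICH 1 to 5. ASMM10LNC1A106792409V4 was at 3.65, 3.44, 3.19, 3.48 and 3.38 in sham and at 0.59, 3.09, 3.03, 0.62 and 0.13 in ICH, in the same order. Each ICH array lay below each sham array, the slide 2 arrays by far and ICH 2 and ICH 3 by little. The pooled log2 differences were -2.34 ± 0.60 SE (limma adjusted p = 0.0382) and -1.94 ± 0.49 SE (limma adjusted p = 0.0355), and within slide 1 they were -0.36 and -0.37 (limma adjusted p = 0.974 and 0.960). Of BYHWD 1 to 5, the first probe gave 1.59, 1.06, 0.91, 1.49 and 0.68 and the second 2.97, 2.65, 2.86, 2.71 and 1.98. Each of these 4 calls was lost when any 1 sham array, ICH 1, ICH 4 or ICH 5 was left out, and the call of ASMM10LNC1A104296140V4 also without BYHWD 2, BYHWD 3 or BYHWD 4.

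The count itself rested on single arrays. It was lowest without ICH 5, at 115, and highest without ICH 2, at 5069, and each of the sham and ICH arrays changed it more than 1.5 times when left out. With the slide 2 arrays as the whole ICH group it was 8812, and with the slide 1 arrays as the whole ICH group it was 2. The slide as a random block gave 79. In a fit with ICH divided by slide, the slide 2 arrays against sham called 38.5% of tested LNC1A probes and 36.5% of all. For the other counts here no share over all probes is given, so they do not set the class apart. The share of higher calls also moved with the scaling, from 795 higher and 262 lower to 616 and 366 after quantile normalization, 472 and 242 with each array centred on its median, and 530 and 290 after normexp with quantiles. The median difference over tested LNC1A probes was then -0.02, -0.04 and -0.01, opposite in sign to the 0.03 above.

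With the slide as a block, the difference between ICH and sham rests on ICH 2 and ICH 3 against the 5 sham arrays of the same slide, with the spread taken from all arrays. In this fit 34 LNC1A probes were called (0.142%), 32 higher and 2 lower, or 0.134% and 0.00838% (limma adjusted p under 0.05). Over all tested probes 0.339% were called, 0.333% higher and 0.00581% lower. AP1B probes held 134 calls (0.673%), all higher, and ASMM10P probes 3. At an unadjusted p under 0.05, 1132 LNC1A probes (4.74%) passed, against 5.91% of all tested probes. The LNC1A share is no higher than this threshold gives when nothing differs. The 32 higher probes differed by 0.77 to 3.73 log2 units, with a median of 1.32, and 25 of them at least 2-fold. Their limma adjusted p ran from 0.00685 to 0.0498. In either direction, 0.113% of tested LNC1A probes were called at 2-fold or more, against 0.302% of all. After quantile normalization 12 LNC1A probes were called, with no filter on detection 11, and after normexp with quantiles 1. With the slide 2 ICH arrays left out of the fit, the same comparison called 2. The differences are the same in both fits, which vary only in the arrays that set the spread.

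The largest of these rises among probes detected on all arrays were present on both slides of ICH arrays. ASMM10LNC1A100135582V4 stood at -5.02, -4.39, -3.93, -4.90 and -4.35 on sham 1 to 5 and at -2.68, -2.53, -1.82, -3.50 and -3.11 on ICH 1 to 5. ASMM10LNC1A110705169V4 stood at -2.92, -2.44, -2.82, -3.15 and -2.07 on sham 1 to 5 and at -1.03, -0.95, -0.32, -1.45 and -1.27 on ICH 1 to 5. Every ICH array was above every sham array in both, with ICH 3 the highest. Within slide 1 the log2 differences were 2.34 ± 0.44 SE (limma adjusted p = 0.0407) and 2.04 ± 0.33 SE (limma adjusted p = 0.0265). For the slide 2 arrays against sham they were 1.42 (limma adjusted p = 0.00902) and 1.43 (limma adjusted p = 0.00139), and pooled they were 1.79 and 1.68 (limma adjusted p = 0.0169 and 0.00546). After normexp with quantiles neither passed within slide 1 (limma adjusted p = 0.0792 and 0.0588). The first also did not pass after quantile normalization alone (limma adjusted p = 0.0570) or with no filter on detection (0.0655).

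The same probes were also high under the decoction. On BYHWD 1 to 5, ASMM10LNC1A100135582V4 stood at -3.40, -2.09, -2.62, -3.39 and -1.60, and ASMM10LNC1A110705169V4 at -2.13, -0.78, -1.36, -1.38 and -0.87. The BYHWD arrays overlapped the ICH arrays and, except for BYHWD 1 in the second probe, lay above all sham arrays. BYHWD minus ICH was 0.11 ± 0.36 SE and -0.30 ± 0.27 SE (limma adjusted p = 0.863 and 0.479), and BYHWD minus sham was 1.90 and 1.38 (limma adjusted p = 0.00359 and 0.00414).

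Both probes called lower with the slide as a block were dim and outside the naming rule, and are named because there were only these. ASMM10LNC1A103633873V4 was at -5.02 to -4.24 in sham and at -5.43, -5.38, -6.08, -6.03 and -5.79 on ICH 1 to 5. It was detected on all sham arrays and, in ICH, on ICH 2 alone. The log2 difference from sham was -1.14 ± 0.22 SE for slide 1 (limma adjusted p = 0.0429), with 1 of its 2 ICH arrays detected. By the fitted difference sham was 2.22-fold higher than the slide 2 arrays (limma adjusted p = 0.000282). None of these was detected, so this fold rests on signals not well above background. ASMM10LNC1A100094038V4 was at -4.56 to -4.15 in sham, at -5.83 and -5.57 on ICH 2 and ICH 3, and at -4.58, -4.41 and -4.46 on ICH 1, ICH 4 and ICH 5. Among the ICH arrays those of slide 1 were low, and neither was detected. By the fitted difference sham was 2.44-fold higher than these (limma adjusted p = 0.0455), which likewise rests on signals not well above background. The slide 2 arrays, all detected, differed from sham by -0.07 (limma adjusted p = 0.832).

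The ICH arrays were also compared between their slides, in a fit with ICH divided by slide. Between slide 2 and slide 1, 5804 LNC1A probes were called (24.3%, limma adjusted p under 0.05), 2902 higher and 2902 lower on slide 2. Of these, 1819 differed at least 2-fold (7.62% of tested LNC1A probes, against 7.02% of all), 574 up and 1245 down. Over all tested probes 22.0% were called, 11.3% higher and 10.7% lower. Centring each array on its median turned the split to 1866 higher and 3496 lower, and the median difference from 0.08 to -0.02. The labels give these 5 arrays as 1 group, so sample, slide and RNA quality cannot be told apart here.

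The direction of the slide difference ran with brightness. The tested LNC1A probes were divided by mean level into 4 bins of equal size. No such bins were made over all tested probes, so the gradient cannot be called particular to this class. In the dimmest bin (-5.95 to -3.37), 815 were higher and 194 lower on slide 2. In the bins above it the counts were 820 and 294, then 713 and 617, and in the brightest bin (0.00 to 9.52) they were 554 and 1797. The median differences fell in that order through 0.21, 0.14 and 0.08 to -0.14. The pooled ICH comparison had the same gradient in its median differences, with 0.14, 0.07, 0.01 and -0.10. Its lower calls rose from 0.419% of the dimmest bin through 0.654% and 1.22% to 2.09% of the brightest, whereas its higher calls followed no such order, at 3.96%, 2.87%, 2.98% and 3.52%.

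The largest slide difference among LNC1A probes detected on all arrays was a fall, singled out after its values were seen. ASMM10LNC1A100079071V4 stood at 4.84, 3.93, 4.25, 3.45 and 4.32 on sham 1 to 5, at 4.79 and 3.98 on ICH 2 and ICH 3, and at -0.79, -0.29 and -0.80 on ICH 1, ICH 4 and ICH 5. On BYHWD 1 to 5 it stood at 1.62, 1.08, 1.48, 2.47 and 2.17. The 2 sets of ICH arrays were thus separated by -5.01 ± 0.41 SE log2 units (limma adjusted p = 4.53e-06), a 32.3-fold gap in signal, with the slide 1 arrays inside the sham range. The pooled difference from sham, -2.78 ± 0.92 SE, did not pass (limma adjusted p = 0.0769).

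The treatment comparison asked what the decoction changed in mice with hemorrhage. In BYHWD, 942 LNC1A probes were higher than in ICH and 593 were lower (1535 of 23866, 6.43%, limma adjusted p under 0.05). Of them 130 differed at least 2-fold (0.545% of tested LNC1A probes, against 0.554% of all), 102 up and 28 down. Over the whole array 6.13% were called, 3.62% higher and 2.51% lower, against 3.95% and 2.48% of LNC1A probes, so the class again sat near the background. The split was 1230 higher and 1017 lower after quantile normalization, 807 and 704 with median centring and 1416 and 994 after normexp with quantiles. The median difference was 0.03 (log2), against 0.00 over all probes. At an unadjusted p under 0.05, 6614 LNC1A probes passed (27.7%, against 27.6% of all tested probes). BYHWD filled slide 3 alone, so decoction and slide cannot be told apart in this comparison or in that with sham.

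Under the naming rule, the 2 largest rises were of probes that followed the slides of the ICH arrays. ASMM10LNC1A102660376V4 stood at -1.28, -1.63, -1.13, -1.56 and -0.81 on BYHWD 1 to 5 and at -4.21, -1.99, -2.02, -4.14 and -3.62 on ICH 1 to 5. ASMM10LNC1A112689573V4 stood at -1.98, -2.04, -2.18, -2.02 and -1.55 on BYHWD 1 to 5 and at -4.54, -2.64, -2.80, -4.61 and -4.21 on ICH 1 to 5. ICH 2 and ICH 3 lay close below BYHWD and the slide 2 arrays far below it. The log2 differences were 1.92 ± 0.48 SE (limma adjusted p = 0.0341) and 1.80 ± 0.45 SE (limma adjusted p = 0.0330). Against ICH 2 and ICH 3 alone they were 0.72 and 0.76 (limma adjusted p = 0.361 and 0.331), and against slide 2 they were 2.71 and 2.50. Sham arrays divided in a like manner without a change of slide. On sham 1 to 5 the first probe stood at -1.88, -1.74, -1.73, -3.84 and -2.97 and the second at -2.54, -2.31, -2.60, -4.65 and -3.58, with sham 4 and sham 5 below the other sham arrays.

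The 2 largest falls under that rule differed in how they held over the slides. ASMM10LNC1A100145979V4 stood at -3.52, -3.37, -3.81, -4.68 and -3.35 on BYHWD 1 to 5, at -1.86, -2.08, -2.68, -1.71 and -2.89 on ICH 1 to 5 and at -3.30, -2.05, -3.07, -1.57 and -1.82 on sham 1 to 5. Every BYHWD array was below all 10 others. Its log2 difference from ICH was -1.50 ± 0.35 SE (limma adjusted p = 0.0272), with -1.37 against slide 1 (limma adjusted p = 0.0949) and -1.59 against slide 2 (limma adjusted p = 0.0108), and from sham it was -1.38 (limma adjusted p = 0.0158). The call was lost without ICH 1, ICH 4, BYHWD 3 or BYHWD 4. ASMM10LNC1A118367482V4 stood at 0.29, 0.38, 0.09, 0.55 and 0.38 on BYHWD 1 to 5, at 2.08, 0.70, 0.84, 2.34 and 2.24 on ICH 1 to 5 and at 0.89, 0.80, 0.64, 0.31 and 0.54 on sham 1 to 5. BYHWD overlapped sham there, and the slide 2 arrays stood alone at the top. Its log2 difference from ICH was -1.30 ± 0.28 SE (limma adjusted p = 0.0201), with -0.43 against slide 1 (limma adjusted p = 0.111) and -1.88 against slide 2, and the call was lost without BYHWD 3.

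Only 1 LNC1A probe was called with a difference of at least 4-fold from ICH (0.00419% of those tested, against 0.00387% of all). It was dim and lay outside the naming rule. ASMM10LNC1A106999991V4 was at -4.48, -5.07, -4.47, -4.81 and -3.92 on BYHWD 1 to 5, at -7.31, -6.77, -4.78, -7.26 and -7.19 on ICH 1 to 5 and at -6.00, -5.99, -5.72, -7.49 and -7.80 on sham 1 to 5. ICH 3 fell among the BYHWD arrays. It was well above background on 4 of 5 BYHWD arrays, on ICH 3 alone among the ICH arrays and on no sham array. The fitted log2 difference from ICH of 2.11 ± 0.49 SE (limma adjusted p = 0.0252) therefore rests largely on spots not above background. The fitted difference was 2.70 from the slide 2 ICH arrays (limma adjusted p = 0.00103) and 2.05 from sham (limma adjusted p = 0.0112). As a rough bound, the lowest detected signal of each array was put in place of an undetected lower value. BYHWD was then 3.42-fold higher than the slide 2 ICH arrays and 3.54-fold higher than sham. These 2 folds were not tested, and undetected spots can lie above that lowest signal.

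The calls changed with the slide of the ICH arrays. Against ICH 2 and ICH 3, 1416 LNC1A probes were higher and 332 lower in BYHWD (7.32% in all, limma adjusted p under 0.05), while over all probes 7.17% were called, 5.84% higher and 1.33% lower. Against the slide 2 arrays, 4044 were higher and 3078 lower (29.8%), beside 27.7%, 15.1% and 12.6% over all probes. The brightness gradient changed too, again counted over LNC1A probes only. In the dimmest bin 441 were higher and 45 lower against slide 1, and 461 and 678 against slide 2. In the brightest bin the counts were 240 and 192 against slide 1, and 1980 and 728 against slide 2. The count against all ICH arrays was 439 without BYHWD 3 and 3147 without ICH 3, the extremes, and it changed more than 1.5 times without sham 5, without ICH 1, ICH 3, ICH 4 or ICH 5, and without any BYHWD array. With the slide as a random block, 1 LNC1A probe was called, with 1536 at an unadjusted p under 0.05, and each of the 4 largest rises and falls had a limma adjusted p of 0.773. Their log2 differences were then 1.80, 1.70, -1.49 and -1.22, close to those above.

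BYHWD was also set against sham. Here 3001 LNC1A probes were higher and 1031 lower (4032 of 23866, 16.9%, limma adjusted p under 0.05), 561 of them at least 2-fold (2.35%, against 2.69% of all probes), 522 up and 39 down, and 16 at least 4-fold (0.0670% against 0.141%). Over the whole array 17.3% were called, 12.7% higher and 4.62% lower, against 12.6% and 4.32% of LNC1A probes. The split moved with the scaling to 2213 higher and 1577 lower after quantile normalization, 2301 and 1819 with median centring and 2288 and 1546 after normexp with quantiles, and the median difference from 0.03 to -0.04, -0.05 and -0.02. The count was 2480 without BYHWD 2. Under a random slide block it was 1, with 1881 at an unadjusted p under 0.05. All 3 comparisons share arrays, so their counts are not independent of one another.

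The 2 largest rises from sham under the naming rule were of probes that also varied among the ICH arrays. ASMM10LNC1A100089999V4 stood at 1.66, 2.48, 1.54, -0.10 and 0.47 on sham 1 to 5, at 2.35, 0.11, 0.69, 3.96 and 2.75 on ICH 1 to 5 and at 4.61, 3.0, 4.18, 4.82 and 4.13 on BYHWD 1 to 5. ASMM10LNC1A100095758V4 stood at -0.16, 0.03, -0.81, -0.33 and -0.42 on sham 1 to 5, at 1.95, -1.14, 0.04, 2.25 and 1.91 on ICH 1 to 5 and at 2.25, 1.91, 2.04, 2.04 and 1.88 on BYHWD 1 to 5. In both, BYHWD was above all sham arrays and above ICH 2 and ICH 3, and overlapped the slide 2 arrays. The log2 differences from sham were 2.94 ± 0.64 SE (limma adjusted p = 0.00743) and 2.36 ± 0.49 SE (limma adjusted p = 0.00579). Both calls held when any single array was left out, but not with the slide as a random block (limma adjusted p = 0.591 and 0.548). From the slide 2 arrays BYHWD differed by 1.13 (limma adjusted p = 0.127) and -0.02 (limma adjusted p = 0.967).

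The 2 largest falls from sham under that rule moved alike. ASMM10LNC1A109231243V4 stood at 3.56, 3.24, 3.33, 1.58 and 1.63 on sham 1 to 5, at -1.01, 2.69, 2.52, 0.70 and 0.39 on ICH 1 to 5 and at 1.06, -0.72, 0.46, 1.51 and 0.99 on BYHWD 1 to 5. ASMM10LNC1A118158919V4 stood at 4.46, 4.02, 4.09, 2.66 and 2.74 on sham 1 to 5, at 0.27, 3.41, 3.27, 1.29 and 1.20 on ICH 1 to 5 and at 2.04, 0.33, 1.74, 2.35 and 1.93 on BYHWD 1 to 5. Sham 4 and sham 5 were the lowest sham arrays in both and lay nearest to BYHWD. The log2 differences were -2.01 ± 0.65 SE (limma adjusted p = 0.0442) and -1.91 ± 0.58 SE (limma adjusted p = 0.0334). The first call was lost without any of sham 1 to 3, without ICH 4, BYHWD 1, BYHWD 2, BYHWD 3 or BYHWD 5, and the second without any of sham 1 to 3 or without BYHWD 2, BYHWD 3 or BYHWD 5.

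Few LNC1A probes were detected on every array of one group and on none of another. There were 33 detected on all sham and no BYHWD arrays (0.119% of the class, against 0.0906% of all probes). A further 17 were detected on all ICH and no BYHWD arrays (0.0611% against 0.0379%). In the opposite direction 6 were detected on all BYHWD and no sham arrays (0.0216% against 0.0379%), and 5 on all BYHWD and no ICH arrays (0.0180% against 0.0231%). Between sham and ICH, 2 were detected on all sham and no ICH arrays (0.00719% against 0.00824%), and 3 on all ICH and no sham arrays (0.0108% against 0.0148%). These are counts of a detection flag with no test, and the dim group of such a probe has only a bound on its level.

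The number in a probe's name was set against its behaviour. Of the 27812 names, 10006 have a number that begins with 100 and the other 17806 one that begins with 101 to 118. The first set was dimmer, with a median level of -2.76 against -2.15, and 69.0% of it was detected on all arrays against 79.9%. The shares called were 4.24% and 4.52% when ICH was set against sham, 6.56% and 6.37% when BYHWD was set against ICH and 18.6% and 16.1% when BYHWD was set against sham, beside 5.03%, 6.13% and 17.3% over all probes, with no test of the differences. Neighbours in number order that were both detected on all arrays had a median correlation over the 15 arrays of 0.0548 where their numbers differ by 1 (2390 pairs) and 0.0137 where they differ by over 1000 (3162 pairs). Above 0.9 were 37 pairs (1.55%) of the first kind and 10 (0.316%) of the second. These correlations are a description, since all pairs share the same arrays.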

How the data were processed

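TRIzol extracts of total RNA were labelled with Cy3, according to the labels' protocols. Per the file headers, the deposited intensity values were read from the scans by Feature Extraction 11.0.1.1 (Agilent), which corrected the processed signal for background on each array and did not scale it between arrays. A deposited table of log2 values for 34099 probes served as an alternative, and the sources used here do not say how the authors made it. Outlying spots were left out, no spot was saturated, and each array's 75th percentile over noncontrol spots was subtracted from its log2 signal. Spike-in, custom and negative probes (132) and probes with a left-out value (169, of which 80 LNC1A) were not tested.

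Groups and replicate numbers came from the sample titles. Slides were inferred from the scan dates and identifiers in the file headers. The 51669 probes above background on at least 5 arrays were fitted over all 15 arrays by lmFit and eBayes of limma 3.58.1, under R 4.3.3, with 2-sided p-values adjusted by Benjamini-Hochberg over these probes. The step was tested on simulated arrays with independent noise and no slides, so that test does not cover the slide differences seen here. No 2 arrays were identical (r of 0.962 to 0.994 over tested LNC1A probes). Named probes are the 2 largest rises and 2 largest falls per comparison among called probes detected on all arrays with no overlap between the groups, the 2 brightest and the steadiest. Among LNC1A probes, 437 rises and 131 falls qualified in ICH against sham and 634 and 398 in BYHWD against ICH. There were 2094 and 586 in BYHWD against sham, and 29 and 0 with the slide as a block. No such count was made over all tested probes, so these show only how wide the choice was. The other named probes were chosen after their values were seen. The members, lists and tests were chosen with earlier results of these data known. Alternatives changed the normalization, the background correction, the filter, the variance model, the blocks, the threshold and the arrays used. Normexp took the spots' median signal, which the files hold, in place of the mean signal first planned, with an offset of 50 units. Precision is limited by the number of arrays. Probe sequences were not used here.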

Additional observations from a re-analysis of the deposited data

Results flagged for a closer look

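In 69 sets of 5 values (each named LNC1A probe and 2 summaries of the class, in each group), 3 had an array far from the other 4, where chance gives about 1 in 20 sets. ASMM10LNC1A110124590V4 stood at a log2 level of 4.73 on BYHWD 3 and at 4.38 to 4.43 on the other BYHWD arrays (gap over range 0.858). ASMM10LNC1A106999991V4 stood at -4.78 on ICH 3 and at -7.31 to -6.77 on the other ICH arrays (gap over range 0.787). The median log2 level of the LNC1A probes was -2.40 on BYHWD 4 and -2.30 to -2.28 on the other BYHWD arrays (gap over range 0.775).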

How the results depend on the processing

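The counts of called LNC1A probes depended most on the slides and on single arrays. Shares over all tested probes are not given for these alternatives, so the counts do not set the class apart from the array. With the slide as a random block (correlation within slides 0.361), limma called 79 for ICH against sham, 1 for BYHWD against ICH and 1 for BYHWD against sham, with 1954, 1536 and 1881 at an unadjusted p under 0.05. When ICH was reduced to 1 slide, with only the slide 1 or only the slide 2 ICH arrays, ICH against sham gave 2 and 8812, and BYHWD against ICH gave 1649 and 6727. For the 3 comparisons of groups at an adjusted p under 0.01, the counts were 75, 109 and 1229, in the same order. The deposited values gave 115 for ICH against sham, and normexp with quantiles gave 2410 for BYHWD against ICH. With the slide as a block for ICH against sham, 12 were called after quantile normalization, 1 after normexp with quantiles and 11 with no filter. The causes were not tested. Leaving out each array in turn gave 115 to 5069 for ICH against sham, 439 to 3147 for BYHWD against ICH and 2480 to 4333 for BYHWD against sham.

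The replicate numbers of the titles did not pair the arrays: of 15 pairs with the same number in different groups, deviations from the group means correlated by -0.361 to 0.104, with 1 pair over 0.1, and 1 of 30 best matches fell on the own number. With a replicate block 408 LNC1A probes were called for ICH against sham, 293 for BYHWD against ICH and 2737 for BYHWD against sham.

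For the 14 named differences, 104 of 326 values under alternatives were no longer past the threshold and 0 changed direction. These probes were chosen for no overlap between the groups compared, so leaving out arrays could not change a direction. The 0 is therefore largely set by the choice and is no measure of stability. In ICH against sham the highest limma adjusted p, 0.773 to 0.962, came with the slide 1 ICH arrays alone. In the BYHWD comparisons the highest, 0.548 to 0.773, came with the slide as a random block. Signal over background limits the 2532 LNC1A probes detected on no array. Their values enter the class medians and ranges but do not measure a level.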

Other observations

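The deposited table of log2 values holds 25360 of the 27812 LNC1A probes (91.2%), among them all 23866 that were tested. Of the 2452 absent ones, 2108 were detected on no array and none on more than 3, while 424 of those present were detected on no array. Each of its columns correlated with its own array once every tested LNC1A probe had been centred on its mean (r of 0.911 to 0.995, across probes, which are not independent). The log2 differences of LNC1A probes differed between it and the scanner values by a median of 0.0824 for ICH minus sham and 0.0169 for BYHWD minus ICH.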
